A study of Homo sapiens with 2 samples.

Results

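The mitosis, kinetochore and spindle genes described here are 36 genes chosen by name for their place in cell division, and each of them had its own row among the 62702 rows of the deposited count table. They were divided by role into 6 checkpoint genes, 11 kinetochore genes, 4 genes of the chromosomal passenger complex, 6 genes for mitotic entry, 4 spindle kinesins and 5 genes of anaphase onset and centromere cohesion. RNA came from K562, a human chronic myeloid leukemia line. Both libraries were titled WT and had the genotype label E50_dCas9-KRAB, where E50 is not explained by the labels. The dCas9-KRAB protein is a nuclease-dead Cas9 fused to a repressor domain that silences the promoter named by a guide RNA. In 1 library the guide was directed at SMC1A, which encodes an ATPase subunit of the ring-shaped cohesin complex, and in the other library it was a control guide. Both cultures received their guide by lentivirus, were kept in 1 µg/ml puromycin from day 2 to day 6, and were sorted for high blue fluorescence, which the guide vector carries. Neither guide was replicated, so each difference is between 2 libraries, no p-value can be given, and each interval covers counting error only.

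Mitosis begins when the kinase CDK1, bound to a B-type cyclin, becomes active. Kinetochores, which are protein plates built on centromeres, then catch spindle microtubules. The spindle assembly checkpoint holds back the anaphase-promoting complex and its activator CDC20 until every chromosome is attached. Once the checkpoint is satisfied, securin is destroyed and separase cuts cohesin, the ring that holds sister chromatids together and of which SMC1A is a part. Most genes of this set are transcribed late in the cell cycle. In bulk RNA, fewer cells in mitosis and less RNA per mitotic cell cannot be told apart, and protein levels were not measured.

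SMC1A stood at 16.3 CPM (288 counts) with the SMC1A guide and 460.4 CPM (8077 counts) with the control guide, where CPM is the count relative to the TMM-scaled library size. The libraries held 16864207 counts with the SMC1A guide and 18349209 with the control guide. The K562 markers were present, as all 10 listed erythroid and K562 genes had at least 100 counts, with a summed level of 13461 CPM with the SMC1A guide and 14702 CPM with the control guide. Their median log2 ratio was -0.64, and 4 of the 10 were at least 2-fold lower (HBZ, TFRC, and the near-identical HBG1 and HBG2). Of markers of other cells, 1 of 6 lymphoid, 1 of 6 monocyte, 5 of 7 stromal or epithelial and 3 of 6 megakaryocyte genes had 100 counts. MS4A1, CD2, S100A8, GP9 and PF4 were at 0 in both libraries. The summed megakaryocyte markers stood at 66.4 CPM with the SMC1A guide and 21.9 CPM with the control guide, and the stromal or epithelial markers at 395.2 and 203.6 CPM in the same order. FN1 carried the higher stromal sum, at 255.9 CPM with the SMC1A guide and 26 CPM with the control guide. Without FN1 the sums were 139.3 and 177.6 CPM, most of it EPCAM, an epithelial gene, at 114.5 and 169.7 CPM. FN1 was not alone, as 3 of the 5 measured genes were at least 2-fold higher (5.11% of all genes). The others were COL1A1, at 13.2 and 3.65 CPM, and COL3A1, at 8.73 and 0.11 CPM, while EPCAM and COL1A2 were lower. The part of these markers in the values below was not tested.

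As a set, the mitosis genes lay close to their control level. They took 0.415% of all counts with the SMC1A guide (exact 95% interval 0.412 to 0.418) and 0.401% with the control guide (0.398 to 0.404). On the TMM scale their summed level was 3971 and 4195 CPM, a log2 ratio of -0.08 (SMC1A guide over control guide), which turned to 0.05 with scaling by library totals. Scaling by totals adds 0.13 to every log2 ratio, and the ratios given here are relative to the TMM scale. All 36 genes passed the filter of 100 counts summed over both libraries, from 731 counts for CENPA to 15671 for TPX2. The median log2 ratio of the 36 was -0.05, or 0.07 by library totals, against -0.05 for all 11321 genes that passed the filter and -0.10 for the 7105 genes in the same range of expression.

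Of the 36 genes, 0 were 2-fold or more higher, against 5.11% of all genes and 2.03% of those in the same range of expression. Likewise 0 were 2-fold or more lower, against 2.32% and 1.44%. The 1.5-fold limit was passed upward by 1 gene, CENPE, against 12.2% of all genes and 6.6% of those in the same range, and downward by 1 gene, SPC25, against 9.06% and 8.23%. The whole counting interval lay above 0 for 10 genes (29.4% of all genes), below 0 for 16 (38.7%) and held 0 for 10 (31.8%). By library totals this balance turned, as it did over all genes, with the interval above 0 for 15 of the 36 (40.5% of all genes) and below 0 for 8 (27.5%). Ratios above 0 numbered 16 of the 36 on the TMM scale (45.7% of all genes) and 22 by library totals (6556 of all 11321 genes). On the TMM scale the interval lay above 0 for 27.8% and below 0 for 44.4% of the 36. These shares were near those of genes in the same range of expression, at 27.1% and 46.8%, where the interval held 0 for 26.2%. The spread among the 36 was narrower than among other genes, with a standard deviation of 0.27 on the log2 scale, against 0.64 over all genes and 0.47 over the genes in the same range of expression.

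**Figure D1:**
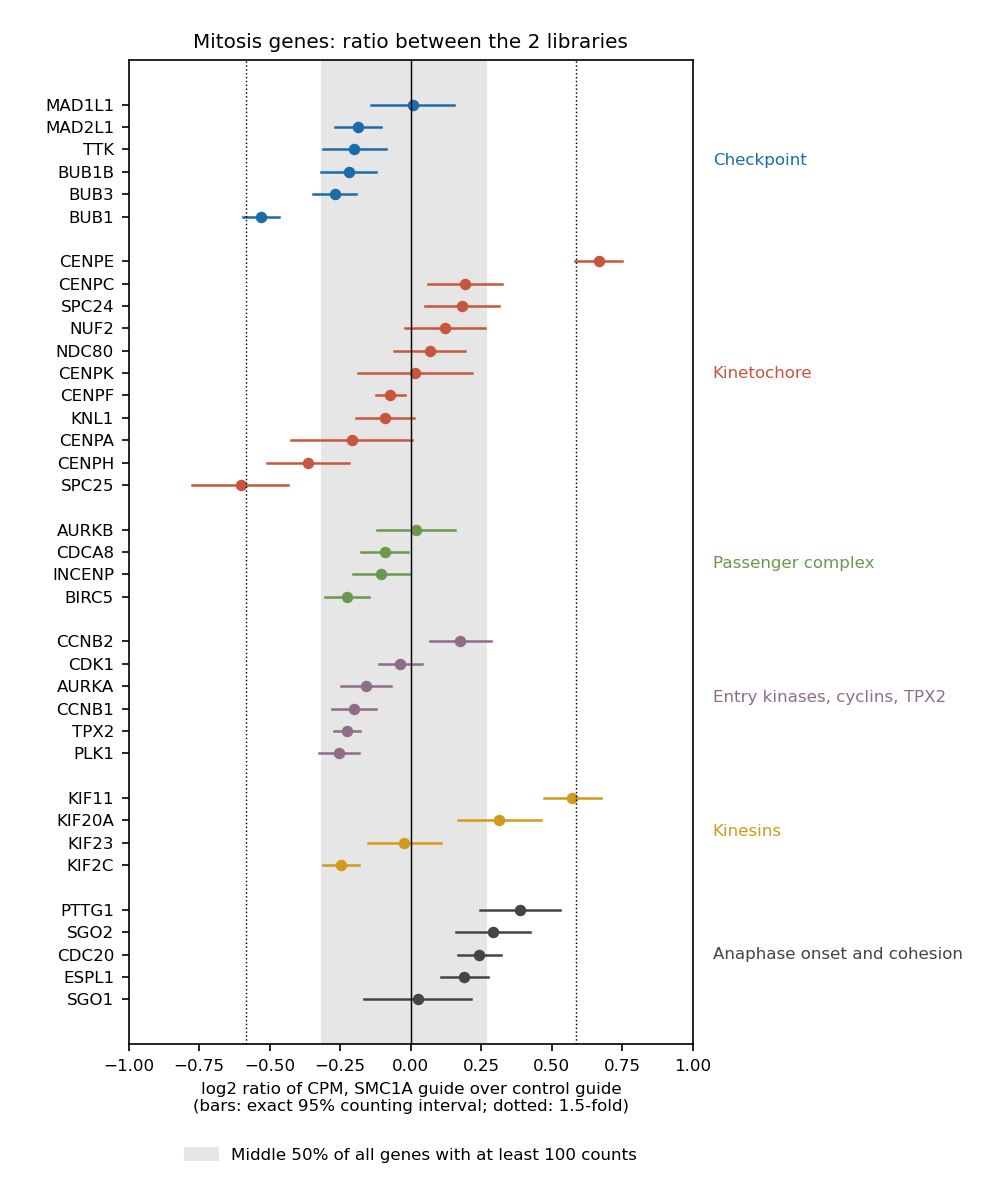
Log2 ratio of CPM (x axis, SMC1A guide over control guide) of the 36 mitosis genes, grouped by role, with exact 95% counting intervals as bars; the grey band holds the middle 50% of all genes with at least 100 counts and the dotted lines mark 1.5-fold. CENPE and KIF11 lie farthest right at 0.67 and 0.57, SPC25 and BUB1 farthest left at -0.60 and -0.53, and all 5 genes of anaphase onset and cohesion lie right of 0.

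Single members were farther apart, and 4 genes at the ends of the range show it. CENPE (ENSG00000138778.14, chromosome 4, 103105806 to 103198409, minus strand, GRCh38) encodes a kinetochore kinesin that carries chromosomes to the middle of the spindle. It had 2951 counts with the SMC1A guide and 1851 with the control guide, or 167.3 and 105.5 CPM, a log2 ratio of 0.67 (interval 0.58 to 0.75). KIF11 (ENSG00000138160.7, chromosome 10, 92593286 to 92655395, plus strand) encodes the kinesin that pushes spindle poles apart, and stood at 115.8 CPM (2043 counts) and 77.9 CPM (1366 counts) in the same order. Its log2 ratio was 0.57 (0.47 to 0.67), just inside 1.5-fold. SPC25 (ENSG00000152253.9, chromosome 2, 168834132 to 168913371, minus strand) encodes a subunit of the Ndc80 complex, the microtubule grip of the kinetochore. It had 476 counts with the SMC1A guide and 720 with the control guide, or 27.0 and 41.0 CPM, with a log2 ratio of -0.60 (-0.77 to -0.44). BUB1 (ENSG00000169679.15, chromosome 2, 110637698 to 110678114, minus strand), a checkpoint kinase that also marks centromeric chromatin for shugoshin, stood at 196.6 CPM (3467 counts) and 284.1 CPM (4984 counts), with a log2 ratio of -0.53 (-0.59 to -0.47). Each of the 1.5-fold calls was lost under an alternative, with CENPE at 0.50 and SPC25 at -0.57 once the trend with transcript length and GC content was removed, and SPC25 at -0.47 by library totals. Among all genes with 100 counts, 89.6% had a lower ratio than CENPE and 8.39% a lower ratio than SPC25.

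Late cell cycle genes are known for a shared promoter layout, in which a CHR element (cell cycle genes homology region, TTTGAA or less often TTTAAA) close to the start of transcription is read by the DREAM and MYB-MuvB complexes, and CCAAT boxes upstream of it bind NF-Y. RefSeq promoter windows (GRCh38.p14) were matched by symbol for 29 of the 36 genes, and TTK, CENPH, KNL1, TPX2, AURKA, BIRC5 and BUB3 were not matched. In the stretch from 100 bases before the start to 50 after it, TTTGAA or its reverse complement TTCAAA stood in 17 of the 29 genes (8.46% of 27305 genes with a window), and TTTAAA, its own reverse complement, in 8 (6.35%). CCAAT or its reverse complement ATTGG stood in 20 of 29 (25.3% of all), and both a CHR motif of either form and CCAAT in 16 (4.16%). A gene with several windows, as 4 of the 29 had, was counted if any window held the motif. In the count of both motifs, CHR and CCAAT may therefore lie in different windows of such a gene. The stretches of the members at both ends of the range are shown because they carry opposite ratios, with these motifs in capitals, as read 5′ to 3′ toward the gene.
CENPE (chr4:103198294-103198443, minus strand): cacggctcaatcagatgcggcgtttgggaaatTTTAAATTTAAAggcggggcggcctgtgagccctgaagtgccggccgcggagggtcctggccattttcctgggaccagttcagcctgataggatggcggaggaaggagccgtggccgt
KIF11 (chr10:92593030-92593179, plus strand): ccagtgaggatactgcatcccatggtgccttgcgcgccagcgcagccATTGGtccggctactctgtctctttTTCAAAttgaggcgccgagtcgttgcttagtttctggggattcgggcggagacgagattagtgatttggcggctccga
PTTG1 (chr5:160421755-160421904, plus strand): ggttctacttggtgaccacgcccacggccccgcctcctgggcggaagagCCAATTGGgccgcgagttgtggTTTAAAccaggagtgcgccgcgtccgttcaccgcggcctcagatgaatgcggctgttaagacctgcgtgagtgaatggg
BUB1 (chr2:110678014-110678163, minus strand): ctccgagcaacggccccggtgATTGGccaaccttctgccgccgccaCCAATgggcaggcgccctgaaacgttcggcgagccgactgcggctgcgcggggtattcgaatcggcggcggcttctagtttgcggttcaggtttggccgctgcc
SPC25 (chr2:168890381-168890530, minus strand): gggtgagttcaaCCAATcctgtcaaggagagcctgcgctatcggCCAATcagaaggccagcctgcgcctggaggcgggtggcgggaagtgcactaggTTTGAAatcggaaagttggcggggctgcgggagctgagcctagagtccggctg

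KIF11 and SPC25, near opposite ends, both carried TTTGAA (as TTCAAA in KIF11) and CCAAT (as ATTGG in KIF11). CENPE had TTTAAA and BUB1 had CCAAT boxes without either CHR form. The median log2 ratio was -0.02 over the 23 genes with a CHR motif and 0.02 over the 6 without, and ratios ran from -0.60 to 0.67 with the motif and from -0.53 to 0.18 without it. The RefSeq starts differ from the GENCODE gene starts of some members, and a match of letters is not a bound site.

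Among checkpoint genes, 5 of 6 had a ratio below 0 with the whole interval below 0, against an interval below 0 for 38.7% of all genes and 46.8% of those in the same range of expression, and the median was -0.21. By library totals the interval lay below 0 for 2 of 6, BUB1 and BUB3, against 27.5% and 32.6% in the same order. The median was then -0.08. BUB1 was the lowest. BUB3, the WD-repeat partner that docks BUB1 and BUBR1 on kinetochores, stood at 147.9 CPM with the SMC1A guide and 178.4 CPM with the control guide (log2 ratio -0.27). BUB1B, which encodes the checkpoint protein BUBR1, stood at 90.8 and 105.7 CPM in the same order (-0.22). TTK, the kinase at the top of the checkpoint, was at -0.20 and MAD2L1, whose product captures CDC20, at -0.19. MAD1L1, which presents MAD2 at unattached kinetochores, had 747 counts with the SMC1A guide and 740 with the control guide, a log2 ratio of 0.01 (-0.14 to 0.15), so that no difference was detectable at this depth. Ratios below 0 were also found for 54.3% of all genes and 60.3% of genes in the same range of expression.

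**Figure D2:**
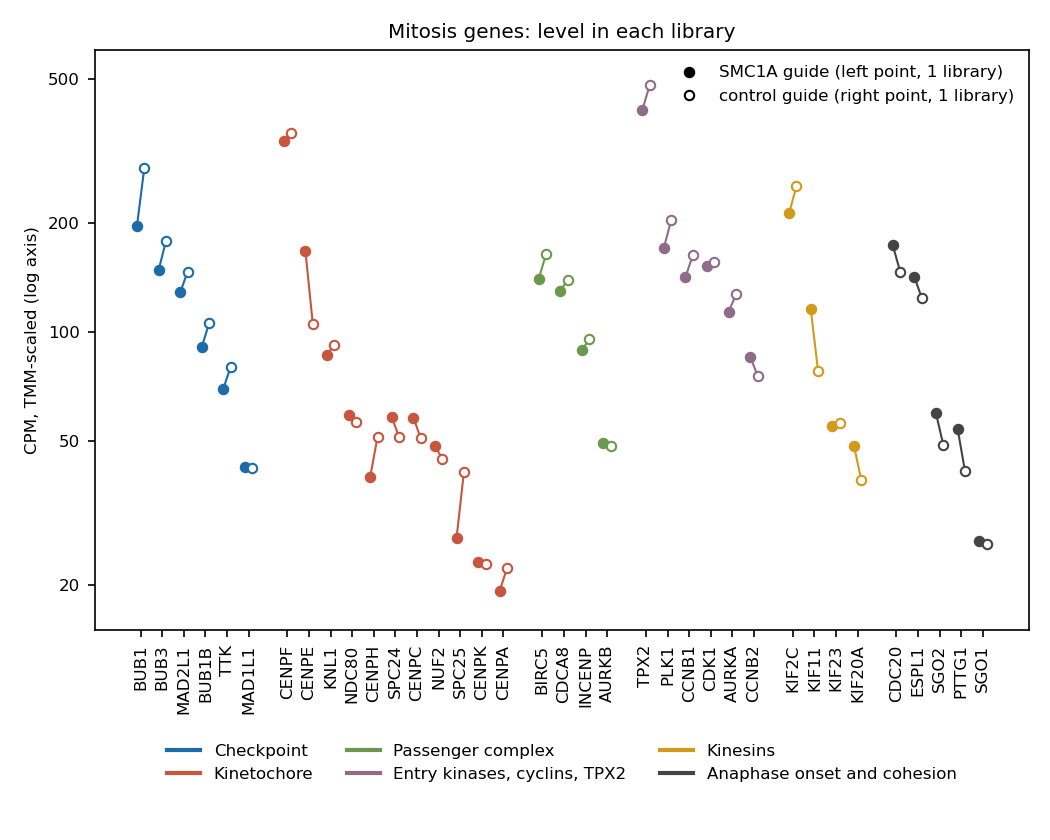
CPM after TMM scaling (log y axis) of each of the 36 mitosis genes in the library with the SMC1A guide (filled, left point) and with the control guide (open, right point), colored by role; each point is 1 library. Lines slope up to the right for checkpoint genes except MAD1L1, and down to the right for the genes of anaphase onset, from CDC20 at 173.6 and 146.8 CPM to SGO1 at 26.4 and 25.9 CPM.

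The kinetochore genes had no common direction. Of 11, the interval lay above 0 for 3 (CENPE, CENPC and SPC24), against 29.4% of all genes and 27.1% of those in the same range of expression. It lay below 0 for 3 (SPC25, CENPH and CENPF), against 38.7% and 46.8%. By library totals it lay above 0 for 6 (40.5% of all genes) and below 0 for 2 (27.5%). The median was 0.01 (0.14 by library totals). CENPF, a large corona protein gene, was at -0.07 with 5946 counts with the SMC1A guide and 6223 with the control guide, and its sign turned by library totals (0.06), as did that of the scaffold gene KNL1 (-0.09 and 0.04). At the inner kinetochore, CENPC, which anchors the plate to centromeric nucleosomes, was at 58.0 CPM with the SMC1A guide and 50.8 CPM with the control guide (log2 ratio 0.19, interval 0.06 to 0.32). CENPH and CENPK belong to the same subcomplex of the constitutive centromere network, yet CENPH had 702 and 899 counts, or 39.8 and 51.2 CPM (-0.36, interval -0.51 to -0.22) and CENPK stood at 23.1 and 22.9 CPM (0.01, interval -0.19 to 0.22). CENPA, the centromeric histone H3 variant, had 340 and 391 counts in the same order (-0.21, interval -0.42 to 0.00).

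The Ndc80 complex holds 4 different subunits in equal number, and their RNAs had unequal ratios. NDC80 (log2 ratio 0.07) and NUF2 (0.12), which form the microtubule-binding end, and SPC24 (0.18), which pairs with SPC25 at the inner end, all lay above 0. SPC25 counts per SPC24 count were 0.465 with the SMC1A guide and 0.802 with the control guide, a ratio within a library that needs no scaling. The ratio of these ratios was 0.580 (exact 95% counting interval 0.499 to 0.673). SPC25 and SPC24 rank 36 and 9 of the 36 by log2 ratio, so the size of this value follows in part from the choice of pair. NDC80 counts per NUF2 count were 1.22 with the SMC1A guide and 1.26 with the control guide, and the interval of their ratio (0.844 to 1.1) held 1.

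The chromosomal passenger complex, which corrects faulty attachments, had ratios from -0.23 to 0.02. Its kinase gene AURKB was at 0.02 (interval -0.12 to 0.16), with 867 counts with the SMC1A guide and 851 with the control guide. The scaffold gene INCENP was at -0.10 and CDCA8, which encodes borealin, at -0.09, and both turned sign by library totals (0.02 and 0.04). BIRC5, which encodes survivin, stood at 140.0 CPM with the SMC1A guide and 163.7 CPM with the control guide (log2 ratio -0.23, interval -0.30 to -0.15). BIRC5 counts per AURKB count were 2.85 and 3.38 in the same order.

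Of the genes for mitotic entry, 5 of 6 lay below 0 (54.3% of all genes, 60.3% of those in the same range of expression). By library totals 4 of 6 did, against 4765 of all 11321 genes and 3289 of the 7105 in the same range. The median was -0.18 (-0.05 by library totals). CDK1 had 2687 counts with the SMC1A guide and 2742 with the control guide (log2 ratio -0.04, interval -0.11 to 0.04, and 0.09 by library totals). The B-type cyclin genes had ratios on opposite sides of 0, under every scaling tried. CCNB1 stood at 141.9 CPM with the SMC1A guide and 163.0 CPM with the control guide (-0.20, interval -0.28 to -0.12), and CCNB2 at 85.4 and 75.6 CPM (0.17, interval 0.07 to 0.28), so that CCNB2 counts per CCNB1 count were 0.602 and 0.464. The kinase genes PLK1 (-0.25) and AURKA (-0.16) were lower, as was TPX2 (-0.23), which encodes the spindle factor that activates Aurora A. With the trend with expression level removed, these stood nearer 0, at -0.13 for PLK1, -0.07 for AURKA and -0.03 for TPX2. TPX2 had the highest level per length of the set, 113.9 CPM per kilobase of transcript with the SMC1A guide and 133.3 with the control guide, and CENPC the lowest, 8.36 and 7.32.

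The 4 spindle kinesins spread widely around a median of 0.15 (0.27 by library totals). Beside KIF11, KIF20A, which carries the passenger complex to the spindle midzone, stood at 48.5 CPM with the SMC1A guide and 39.0 CPM with the control guide (log2 ratio 0.31, interval 0.17 to 0.46). KIF23, a motor of the centralspindlin complex needed for cytokinesis, had 972 and 983 counts (-0.02, and 0.11 by library totals). KIF2C, which takes microtubule ends apart at centromeres, stood at 213.1 and 253.1 CPM (-0.25, interval -0.31 to -0.18). KIF11 counts per KIF2C count were 0.543 with the SMC1A guide and 0.308 with the control guide, a ratio of 1.77 (1.63 to 1.92). These genes rank 2 and 31 of the 36 by log2 ratio, so the size of this value follows from the choice of pair. CENPE, counted here with the kinetochore, is itself a kinesin and lay on the side of KIF11 and KIF20A.

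Genes of anaphase onset and centromere cohesion all lay above 0, 5 of 5. Ratios above 0 were found for 45.7% of all genes and 39.7% of those in the same range of expression. The interval lay above 0 for 4 of the 5, against 29.4% and 27.1% in the same order. With the trend with expression level removed, 4 of the 5 lay above 0 and SGO1 below it. PTTG1, which encodes securin, the inhibitor of separase, had 953 counts with the SMC1A guide and 725 with the control guide, or 54.0 and 41.3 CPM (log2 ratio 0.39, interval 0.25 to 0.53). ESPL1, the separase gene, stood at 141.7 and 124.3 CPM (0.19, interval 0.11 to 0.27), and PTTG1 counts per ESPL1 count were 0.381 and 0.332. CDC20 was at 0.24 (interval 0.17 to 0.32). CDC20 counts per MAD2L1 count, the activator over its checkpoint inhibitor, were 1.35 with the SMC1A guide and 1.00 with the control guide, a ratio of 1.35 (1.25 to 1.46). The shugoshin genes, whose products shield centromeric cohesin, were at 0.29 for SGO2 (interval 0.16 to 0.42) and 0.02 for SGO1 (-0.17 to 0.21). Summed over each role, these 5 genes had 0.674 counts per checkpoint gene count with the SMC1A guide and 0.462 with the control guide, a ratio of 1.46 (1.40 to 1.52). The roles were compared after earlier results of these data were known, and no test of a difference between roles was possible.

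**Figure D3:**
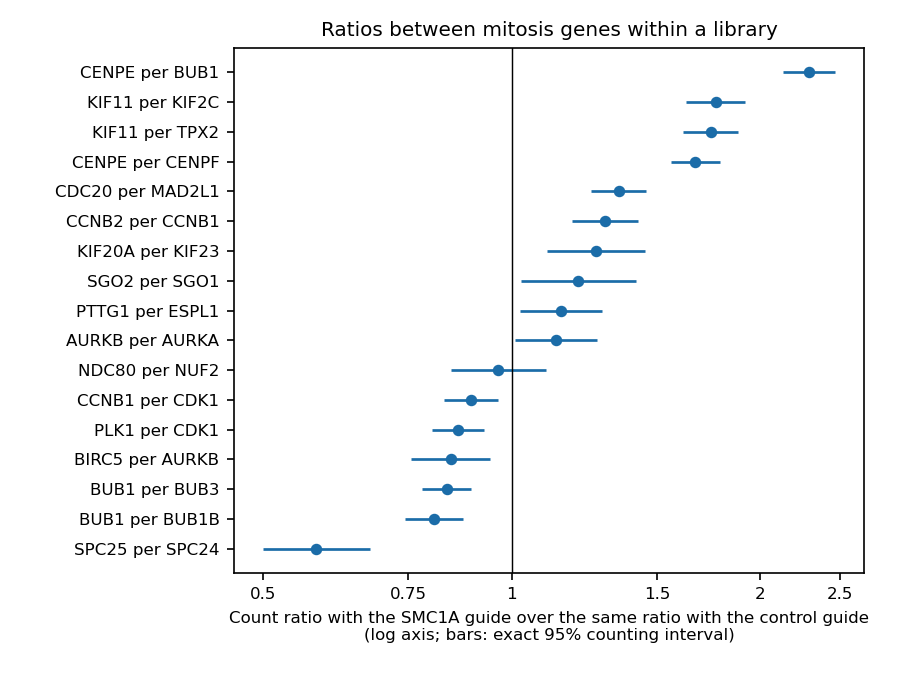
Ratio of counts between 2 mitosis genes within the library with the SMC1A guide, divided by the same ratio with the control guide (log x axis), for 17 pairs, with exact 95% counting intervals. CENPE per BUB1 lies farthest right at 2.29 and SPC25 per SPC24 farthest left at 0.580, and the interval of NDC80 per NUF2 holds 1. The pairs were picked by hand. CENPE and BUB1 rank 1 and 35 of the 36 by log2 ratio, so their distance from 1 follows from that choice. SPC25 and SPC24 rank 36 and 9, so theirs follows from it in part.

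Other cell division genes were taken from lists of the same pathways. Of 32 further kinetochore genes, 0 passed 2-fold upward, against 5.11% of all genes and 2.03% of those in the same range of expression. Downward 0 did, against 2.32% and 1.44% in the same order. The median was -0.09 (0.04 by library totals). SKA1, whose product helps kinetochores follow shrinking microtubules, was the lowest at 30.6 CPM with the SMC1A guide and 57.7 CPM with the control guide (log2 ratio -0.92), followed by the checkpoint-silencing ATPase gene TRIP13 (-0.53), while CENPQ (0.26) and SKA2 (0.27) were highest. Of the anaphase-promoting complex and its cofactors, 17 of 18 genes were measured. Ratios lay below 0 for 14, against 54.3% of all genes and 60.3% of those in the same range of expression. By library totals 10 did, against 4765 of all 11321 genes and 3289 of the 7105 in the same range. Their median was -0.17, from ANAPC5 (-0.43) and ANAPC13 (-0.41) to ANAPC16 (0.13) and CDC26 (0.21). Of 9 further mitotic kinesins, KIF2A (-0.41) and KIF22 (-0.15) were lowest, KIF4A (0.39) and KIF14 (0.41) highest, and the median was 0.04.

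The cytokinesis list had the highest median of the cell division lists described here. Of its 9 genes, 7 had an interval above 0, against 29.4% of all genes and 27.1% of those in the same range of expression, and 1 below 0, against 38.7% and 46.8%. The median was 0.32 (0.44 by library totals). ECT2, the exchange factor that activates RhoA at the cleavage furrow, stood at 63.0 CPM with the SMC1A guide and 45.0 CPM with the control guide (log2 ratio 0.49), and the citron kinase gene CIT at 92.8 and 64.9 CPM (0.52). The lowest were RHOA (-0.22) and PRC1 (-0.04, and 0.09 by library totals). The 28 spindle and centrosome genes had a median of 0.00, from the augmin subunit genes HAUS7 (-0.91) and HAUS6 (-0.71) to SPAG5 (0.42) and ASPM (0.51). No test set the lists apart from one another.

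Lists for the control of mitotic entry and of late transcription had medians near 0, while single genes ranged widely. The 16 genes of CDK1 control had a median of -0.08 (0.05 by library totals), from the phosphatase gene CDC25A (-0.59) and the inhibitory kinase gene PKMYT1 (-0.33) to CDC25C (0.32) and CDC25B (0.41). Of 25 genes of late cell cycle transcription control, 1 passed 2-fold upward, against 5.11% of all genes, and 0 downward, against 2.32%. That gene was CDKN1A, the p21 inhibitor gene, at 22.3 CPM with the SMC1A guide and 6.50 CPM with the control guide. The repressor gene E2F7 followed at 29.1 and 15.1 CPM (log2 ratio 0.95). It passed 2-fold upward as well by library totals, where 2 genes of the list did, against 766 of all 11321 genes. MYBL2, part of the complex that reads CHR elements, was at -0.51 and E2F4, the E2F of DREAM, at -0.58. The median of this list was -0.09 (0.04 by library totals).

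G1/S genes, which are transcribed before the mitosis genes in the cycle, had the lowest median of these lists. Of 24, 23 had ratios below 0, against 54.3% of all genes and 60.3% of those in the same range of expression. By library totals 20 did, against 4765 of all 11321 genes and 3289 of the 7105 in the same range. The interval lay below 0 for 22, against 38.7% and 46.8% in the same order, and by library totals for 18, against 27.5% and 32.6%. The median was -0.33 (-0.20 by library totals). UNG was at -0.73, and MCM2, a subunit of the replicative helicase, stood at 167.4 CPM with the SMC1A guide and 249.4 CPM with the control guide (log2 ratio -0.58), while CHAF1B stood near 0 (-0.05, and 0.08 by library totals). Among 9 proliferation markers the median was -0.13 (0.00 by library totals), with CCND3 at -0.51, PCNA at -0.37, MKI67 at 0.15 and CCND2, at least 2-fold higher, at 1.52. The share of cells in each phase was not measured.

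**Figure D4:**
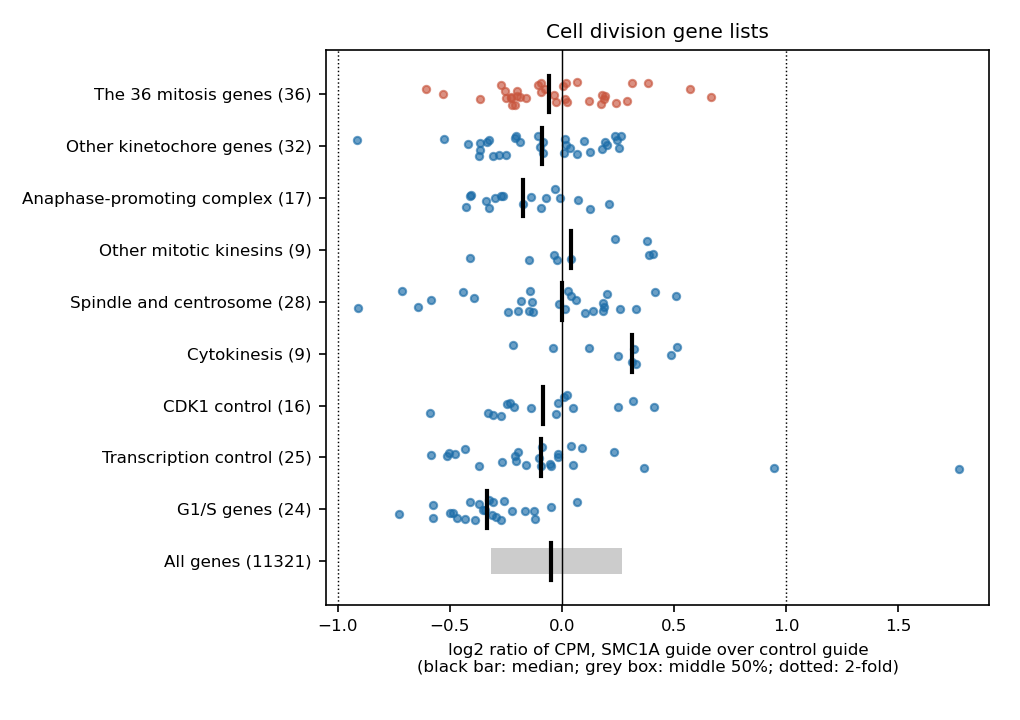
Log2 ratio of CPM (x axis, SMC1A guide over control guide) of each gene with at least 100 counts in the 36 mitosis genes and in 8 other cell division lists, with black bars at the medians; the grey box holds the middle 50% of all 11321 genes and dotted lines mark 2-fold. The mitosis genes center at -0.05, the cytokinesis genes at 0.32 and the G1/S genes at -0.33.

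The order of the 36 genes followed transcript features weakly. Spearman's rho of the log2 ratio with the length of the longest coding transcript was 0.10 over the 36 and -0.02 without CENPE and KIF11, against 0.10 over 10300 protein-coding genes. With GC content rho was -0.14, and with mean level -0.31, against -0.25 with mean level over all genes. These are descriptions across genes, which share 2 libraries and are not replicates. The genes lie on 16 chromosomes, with 5 each on chromosomes 1 and 5. Counts of a few could include reads of neighbors or copies, as the counting strand is not given in the sources used here. CENPA shares 6.96% of its exon bases with SLC35F6 on the same strand, and KIF20A 3.34% with BRD8 on the opposite strand. The CDC20 copy CDC20P1 had 52 counts with the SMC1A guide and 49 with the control guide, and the copies of PTTG1, namely PTTG2, PTTG3P and PTTG4P, had 0 in both.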

How the data were processed

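Poly(A) RNA (1 µg of input) of 2 K562 cultures was sequenced as paired reads of 100 bases with a strand-preserving kit, per the labels' protocols. The authors deposited estimated counts per gene (expected counts), rounded to whole numbers and not scaled between libraries. The tools were STAR 2.7.10a, Salmon 1.10.1 and DESeq2 1.42.1, with build hg38, per the submitters' processing notes. No source used here gives their roles or the annotation. Salmon divides reads that match several transcripts, so counts of near-identical genes depend on that division.

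Library sizes were scaled with TMM (edgeR 4.0.16, R 4.3.3), and log2 ratios of CPM were computed with a prior count of 1. Intervals are exact (Clopper-Pearson) 95% intervals of the ratio of counts, and conditional exact intervals for ratios within a library. They cover counting error only, because each guide had 1 library. Without molecular identifiers duplicate reads of a molecule are counted, so the intervals can be too narrow even for counting error. Limits of 2-fold and 1.5-fold were applied to genes whose counts in both libraries summed to 100 or more. Symbols came from the gene-name table, positions and lengths from GENCODE 29 (GRCh38), which held 97.9% of genes with 100 counts, and promoters from RefSeq GRCh38.p14. Python 3.11.15, scipy 1.17.1 and statsmodels 0.14.6 were used, and the steps were tested on simulated data.

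The 36 genes, their roles and the 14 other lists were chosen with earlier results of these data known. All 36 are named, the 3 highest and 3 lowest and any past 1.5-fold in full. In each pathway list, the 2 highest, the 2 lowest and any gene past 2-fold are named; further genes named were chosen after their values were seen. A gene that this rule picks and an overlap are not reported here. Of the marker lists, counts and sums are given.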

Additional observations from a re-analysis of the deposited data

How the results depend on the processing

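No paired analysis was possible because each guide had 1 library, and for the same reason no replicate could be left out. The counts past 2-fold stayed at 0 of 36 in both directions under every alternative run. Scaling by library totals moved most: the median of the 36 genes was then 0.074, with -0.081 for checkpoint, 0.14 for kinetochore, 0.031 for passenger complex, -0.0498 for entry, 0.27 for kinesin and 0.37 for anaphase genes. By totals, 2 genes passed 1.5-fold upward, against 1866 of all 11321 genes, and 0 downward, against 640. The interval then lay above 0 for 15 (40.5% of all genes) and below 0 for 8 (27.5%). On the TMM scale it did so for 10 (29.4%) and 16 (38.7%). Upward of 1.5-fold were also 2 genes with upper-quartile scaling and 2 with the trend with expression level removed, where KIF11 joined CENPE. Removal of the expression trend gave a median of -0.0501 for the entry genes. With the trend with transcript length and GC content removed, 0 genes were 1.5-fold higher and 0 lower, CENPE stood at 0.50 and SPC25 at -0.57, and the kinetochore median was -0.058. Scaling by DESeq2 size factors or by TMM computed without globin and mitochondrial genes, a prior count of 0.25 or 5, filters of 20 and 500 counts or none, and 99% intervals kept every median of a role on its side of 0 and within 0.1, and each count among the 36 genes within 1.5 times. Counts over all genes moved with the filter: 1361 were 2-fold higher at 20 counts and 199 at 500 counts, against 579 at 100 counts. By totals 6 genes changed sign, KIF23, CDK1, CENPF, KNL1, CDCA8 and INCENP, and with the expression trend removed 6 did, KIF23, CDK1, CENPF, CDCA8, CENPK and SGO1. Ratios moved beyond their counting interval for 22 genes by totals, 15 with the expression trend removed and 3 with length and GC content removed. Without replicates, differences between cultures cannot be set beside these ranges, and counting error limits the genes with fewest counts, CENPA, CENPK and SGO1.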
